A study of Mus musculus with 6 samples.

Results

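Far intergenic peaks are the sites of transcription factor binding that lie more than 100000 bp from the nearest transcription start site (TSS). They were taken from 6 peak lists of chromatin immunoprecipitation sequencing (ChIP-seq) in mouse bone marrow-derived macrophages (BMDMs). A peak belonged here when its annotation was intergenic, its absolute distance to the nearest annotated TSS was above 100000 bp, and its detailed annotation named neither a repeat nor a CpG island. These conditions selected 7749 of the 134964 peaks of all 6 lists. They merged into 3467 regions, each closest to one of 1064 genes. The peak nearest inside the limit lay 100043 bp from the TSS of Gm5086, and the nearest outside it 99972 bp from that of Thbs1.

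All cells were wild-type (Wt) BMDMs from mice aged 8 to 12 weeks on the C57BL/6 background, grown for 6 days with L929 supernatant, which supplies macrophage colony-stimulating factor. The treated cells were given IL-4 (20 ng/ml) and fixed 1 h later, and the control cells were given none. Fixation used DSG followed by formaldehyde. C/EBPα, IRF8 and JUNB were each immunoprecipitated from 1 control and 1 IL-4 sample. With 1 library per group there was no spread between replicates and no test was made, so intervals below are 95% Wilson intervals that cover counting error only. The sequencing depth was unknown, and the libraries were made with either of a pair of kits, and which kit served which sample is not given in the sources used here, so depth, kit and background cannot be told apart from IL-4. As a check of the cell type, C/EBPα and IRF8 peaks lay beside Spi1, Csf1r, Cebpa, Irf8, Adgre1 and Lyz2 in both conditions, with 1 to 10 peaks per gene and list, whereas the JUNB lists had between 0 and 2.

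Macrophage enhancers are opened by lineage-determining factors that bind together on short DNA motifs. C/EBPα is a leucine-zipper protein that directs myeloid differentiation, IRF8 binds composite sites with the ETS factor PU.1, and JUNB is a subunit of AP-1, which recognises its own palindrome. IL-4 activates STAT6, whose preferred palindrome has 4 bases between its arms. Many enhancers of developmental and immune genes lie far from any promoter, in gene-poor stretches of the chromosome, and the nearest gene on the linear map need not be the one that is regulated.

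The sequences under the strongest far peaks and under those that differed most between the conditions are shown for the motifs they hold. Each is the plus strand of 200 bp around the centre of a peak in the mm10 build. Capitals mark matches on either strand to AP-1 (TGACTCA), C/EBP (TTGCNNAA), PU.1 (GAGGAAGT), PU.1-IRF (GGAANTGAA), the core of the interferon-stimulated response element (ISRE, GAAANNGAA), a STAT motif (TTCNNNGAA) and a STAT6-type motif (TTC, 4 bases, GAA). Neighbouring matches can run together.
The highest C/EBPα score in control, 429587 bp upstream of Mef2c (chr13:83074348-83074547): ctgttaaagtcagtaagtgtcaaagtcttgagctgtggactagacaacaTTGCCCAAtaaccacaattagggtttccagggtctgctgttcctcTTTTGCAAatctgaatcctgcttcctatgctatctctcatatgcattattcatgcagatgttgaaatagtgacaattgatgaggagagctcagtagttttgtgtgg
The highest IRF8 score, 1058011 bp downstream of the Pla2g4a start (chr1:148903174-148903373): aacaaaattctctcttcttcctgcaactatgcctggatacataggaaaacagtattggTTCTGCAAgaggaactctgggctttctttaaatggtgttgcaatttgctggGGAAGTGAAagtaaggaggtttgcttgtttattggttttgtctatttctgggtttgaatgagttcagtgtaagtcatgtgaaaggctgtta
The highest JUNB score in control, 106289 bp upstream of Fmo9 (chr1:166788035-166788234): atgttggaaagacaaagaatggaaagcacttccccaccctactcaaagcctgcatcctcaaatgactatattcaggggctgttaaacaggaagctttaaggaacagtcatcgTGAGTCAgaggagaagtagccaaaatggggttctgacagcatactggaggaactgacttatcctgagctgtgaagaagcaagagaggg
The largest score ratio of IL-4 over control for C/EBPα, 166124 bp downstream of the B3gnt2 start (chr11:22693512-22693711): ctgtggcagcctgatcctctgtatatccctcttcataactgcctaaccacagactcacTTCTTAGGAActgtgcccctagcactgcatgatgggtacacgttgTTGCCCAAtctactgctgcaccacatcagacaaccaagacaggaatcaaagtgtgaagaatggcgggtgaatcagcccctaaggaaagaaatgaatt
The largest such ratio for IRF8, 375805 bp upstream of Pik3r1 (chr13:102143923-102144122): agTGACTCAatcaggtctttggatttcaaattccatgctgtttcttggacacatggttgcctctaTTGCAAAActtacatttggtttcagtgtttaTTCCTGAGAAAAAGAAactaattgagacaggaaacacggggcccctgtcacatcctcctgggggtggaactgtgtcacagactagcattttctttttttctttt
The strongest IRF8 peak seen only after IL-4, 103911 bp upstream of Zc3h12c (chr9:52271923-52272122): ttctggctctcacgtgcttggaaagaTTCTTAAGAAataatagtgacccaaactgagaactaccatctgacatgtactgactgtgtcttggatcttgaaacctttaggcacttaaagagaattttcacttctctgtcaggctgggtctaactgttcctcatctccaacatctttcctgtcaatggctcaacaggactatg
The strongest JUNB peak seen only in control, 140708 bp downstream of the Gm14461 start (chr2:78378156-78378355): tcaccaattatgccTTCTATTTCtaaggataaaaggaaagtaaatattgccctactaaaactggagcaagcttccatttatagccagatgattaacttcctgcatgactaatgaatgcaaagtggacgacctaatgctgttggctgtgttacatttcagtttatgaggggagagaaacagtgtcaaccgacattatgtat
The strongest JUNB peak seen only after IL-4, 265472 bp upstream of Btg1 (chr10:96351430-96351629): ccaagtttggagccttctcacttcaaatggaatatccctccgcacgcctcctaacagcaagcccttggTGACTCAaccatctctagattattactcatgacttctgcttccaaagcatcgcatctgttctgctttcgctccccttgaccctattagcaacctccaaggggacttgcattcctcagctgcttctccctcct

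The Mef2c window held C/EBP motifs and no other motif searched. The Pla2g4a window held a C/EBP and a PU.1-IRF motif. The Fmo9 and Btg1 windows of JUNB held the AP-1 motif, whereas the Gm14461 window did not. The STAT6-type motif was present in the B3gnt2, Pik3r1 and Zc3h12c windows, where scores were higher after IL-4 or peaks were called only then. It was absent from the Btg1 window. The windows of the strongest C/EBPα peak called only after IL-4, beside Zfp36l1, and of the largest JUNB ratio, beside Klf6, held the STAT motif but not the STAT6-type one.

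Far peaks were a small and similar share of the C/EBPα and IRF8 lists and a slightly larger share of the JUNB lists. C/EBPα had 1398 far peaks among 24486 in control (5.71%, 5.43 to 6.01) and 1399 among 24612 after IL-4 (5.68%, 5.40 to 5.98). IRF8 had 2147 of 37525 (5.72%, 5.49 to 5.96) and 2359 of 42076 (5.61%, 5.39 to 5.83). JUNB had 286 of 3940 (7.26%, 6.49 to 8.11) and 160 of 2325 (6.88%, 5.92 to 7.98). In control, the JUNB interval lay above those of the other factors, and within each factor the control and IL-4 shares had overlapping intervals. The number of far peaks after IL-4 over control was 1.00 (C/EBPα), 1.10 (IRF8) and 0.559 (JUNB), beside 1.01, 1.12 and 0.59 for all peaks of these lists, so the far peaks moved in number with the rest of their list. Of the intergenic peaks beyond 100000 bp, 23.8% to 38.9% per list overlapped a repeat or CpG island and were left out.

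**Figure D1:**
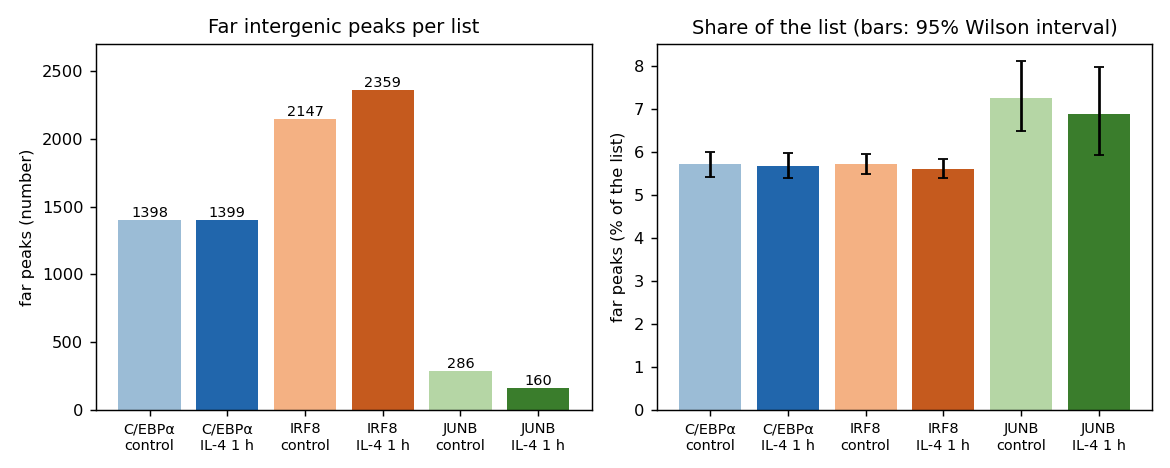
The left panel plots the number of far peaks in each of the 6 lists and the right panel their share of all peaks of the list in percent, with 95% Wilson intervals as error bars. The bars fall from 286 to 160 between the JUNB control and IL-4 lists, while the shares of the list stay between 5.61% and 7.26%.

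Most far peaks lay just beyond the limit. In every list 59.2% to 62.2% lay between 100 and 200 kb from the TSS, the median distance was between 164722 and 177167 bp, and 43 merged regions lay over 1 Mb away. The farthest was an IRF8 peak of the IL-4 list at 1765057 bp. Upstream and downstream positions were nearly balanced, with 50.7% to 52.8% of far peaks upstream of the nearest TSS. The nearest gene was protein-coding for 74.4% to 79.0% of far peaks, below the 82.2% to 86.3% of intergenic peaks within 100 kb.

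How far a peak is depends on the gene catalogue. In the larger GENCODE annotation, 87.7% of the far C/EBPα control peaks (85.9 to 89.3) had some annotated TSS within 100 kb, mostly of long non-coding RNAs and pseudogenes, and 20.2% lay inside an annotated gene. A protein-coding TSS was within 100 kb of 14.4% of them. Shares in the other 5 lists were between 86.2% and 87.8% for any TSS and between 13.8% and 15% for protein-coding ones. These peaks were therefore far from the RefSeq genes used by the authors, and mostly far from protein-coding genes, but seldom far from every annotated transcript.

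Far peaks had median scores near those of intergenic peaks within 100 kb and above those of promoter peaks in all 6 lists. The deposited peak score, taken here as −log10 of the peak caller's p-value or q-value, had a median of 12.7 (quartiles 6.75 and 26.0) in far C/EBPα control peaks, 12.0 in intergenic peaks within 100 kb and 9.26 in promoter peaks. IRF8 in control gave 11.3, 11.2 and 7.34 in the same order, and JUNB gave 8.09, 7.82 and 6.64. After IL-4 the far medians were 12.2 (C/EBPα), 10.6 (IRF8) and 6.48 (JUNB). Among the top decile of each list by score, 6.01% to 7.87% of peaks were far. In control this was 6.78% for C/EBPα (5.85 to 7.85, beside 5.71% of the whole list). It was 6.48% for IRF8 (5.73 to 7.31, beside 5.72%), so both intervals lay just above the list share. In the other lists the interval held the share of the whole list. Within the far C/EBPα control peaks, the median score was 11.3 at 100 to 200 kb, 14.9 at 200 to 500 kb, 17.1 at 500 kb to 1 Mb (85 peaks) and 14.3 over 1 Mb (11 peaks). After IL-4 the same bins gave 11.4, 13.6, 15.2 and 12.0, and IRF8 in control gave 11.2, 11.8, 9.38 and 9.28.

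The far sites with the highest scores scored nearly alike in both conditions. In the region 1058011 bp from the start of Pla2g4a, which encodes a cytosolic phospholipase A2, IRF8 scored 302.53 in control and 322.61 after IL-4. C/EBPα scored 180.13 and 180.89 there, and JUNB was called only after IL-4, at 4.44. At the Mef2c region, beside the gene of a MADS-box transcription factor of the myeloid and neural lineages, C/EBPα scored 187.87 and 189.44, IRF8 83.53 and 76.00, and JUNB 15.01 and 11.71. These regions held the highest C/EBPα scores among far peaks in both conditions, and the Pla2g4a region the highest far IRF8 score. Over all peaks, C/EBPα scores reached 264.79 in control and 233.73 after IL-4. IRF8 led at a region 167456 bp from Ube2e3, a ubiquitin-conjugating enzyme gene, with 262.19 and 285.65 where C/EBPα scored 19.31 and 10.45. It also led 280151 bp upstream of Nrp1, the gene of a semaphorin and VEGF co-receptor, with 257.99 and 252.29 against 28.10 and 36.48 for C/EBPα. Near Itga1, an integrin gene, C/EBPα led instead, with 167.11 and 146.65 against 56.84 and 63.49 for IRF8. The factor with the higher score thus differed from site to site. A factor is said to lead where its score was higher. Scores of different factors come from different antibodies and libraries of unknown depth, so they do not measure which factor bound more.

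The far JUNB sites with the highest control scores were lower after IL-4. Near Fmo9, a flavin monooxygenase gene, JUNB scored 70.91 in control and 33.82 after IL-4. There IRF8 scored 53.06 and 94.16, and C/EBPα 21.91 and 20.49. Beside Reep3, JUNB scored 63.61 and 23.61, with C/EBPα at 5.76 and 14.38 and IRF8 called only after IL-4 at 11.18. At 1700080N15Rik, a non-coding RNA gene, JUNB scored 48.27 and 37.71, with C/EBPα at 79.97 and 94.02. These 3 sites were picked by their JUNB scores in control, a choice that favours lower scores in the other list. The median score of all JUNB peaks was 7.88 in control and 6.21 after IL-4. The sites therefore cannot show an opposed change of the factors.

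In the full lists, far C/EBPα and IRF8 peaks were mostly called in both conditions and far JUNB peaks mostly in control alone. Of the far C/EBPα control peaks, 1108 of 1398 overlapped a peak of the IL-4 list (79.3%, 77.1 to 81.3) and 290 did not (20.7%, beside 21.4% of all peaks of the list). For IRF8, 1708 of 2147 overlapped (79.6%, 77.8 to 81.2) and 20.4% did not, beside 21.4% of all. For JUNB, 102 of 286 overlapped (35.7%, 30.3 to 41.4) and 184 did not, which was 64.3% beside 64.2% of all. Read from the IL-4 lists, 19.9% of far C/EBPα peaks, 27.8% of far IRF8 peaks and 34.4% of far JUNB peaks had no control counterpart, beside 22.0%, 30.4% and 39.2% of all peaks. The far shares lay within 5 percentage points of the background in all 6 readings. With a score of at least 10 required in both lists, 20.8% of far JUNB peaks were kept, against 81.3% for IRF8. That limit left 106 far JUNB peaks in control and 30 after IL-4. With the lists of a factor cut to equal length by score, 48.8% of far JUNB peaks were kept (41.4 to 56.3), against 76.1% for IRF8. At these settings the shares over all peaks were not computed.

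Peaks with high scores were kept more often. In the top quartile of control scores, 383 of 384 far C/EBPα peaks and 568 of 568 far IRF8 peaks were also in the IL-4 list, against 51 of 84 for JUNB (60.7%, 50 to 70.5). In the bottom quartile the shares were 47.1%, 48.5% and 14.1%. The JUNB quartiles span lower scores than the others, from 11.58 upwards in the top quartile against 23.99 for far C/EBPα, so equal quartiles are not equal scores.

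**Figure D2:**
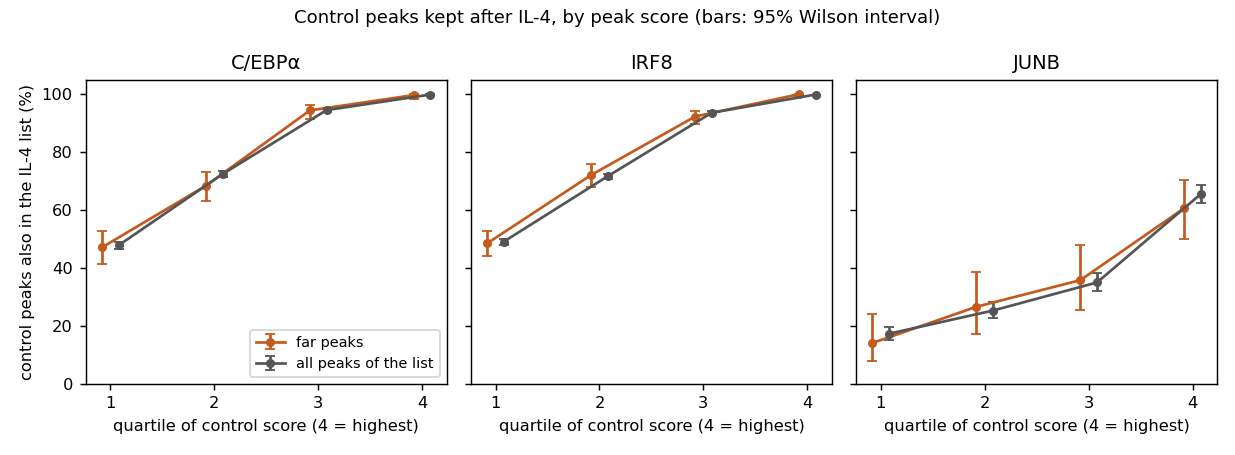
The share of control peaks that overlapped an IL-4 peak, in percent, is plotted against the quartile of the control score for far peaks (orange) and all peaks of the list (grey), with 95% Wilson intervals. Far and all peaks run together for each factor, and JUNB stays lower, reaching 60.7% of far peaks in its top quartile where C/EBPα and IRF8 are at 99.7% and 100%.

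Scores of far peaks present in both conditions were compared pair by pair. The mean log2 ratio of IL-4 over control was −0.0149 for C/EBPα (SD 0.725 over 1098 pairs, SE 0.0219). Over all C/EBPα pairs it was 0.0161, and within 100 kb 0.0218. For IRF8 it was 0.039 (SD 0.808, 1695 pairs, SE 0.0196), below the 0.0908 over all pairs and 0.101 within 100 kb. The IRF8 value was 0.145 with each score divided by the median of its list, 0.0948 with lists matched by rank and −0.032 for the pairs beyond 100 kb from every GENCODE TSS. For JUNB the mean was −0.597 (SD 0.812, 101 pairs, SE 0.0808), beside −0.548 over all pairs and −0.549 within 100 kb. It was −0.254 for the far pairs with the scores divided by list medians. Each SD and SE is over peaks of 1 library per condition, so they do not give the error of the IL-4 effect. Of the 101 JUNB pairs 32 were at least 2-fold lower (31.7%, beside 29.9% of all pairs) while 1 was at least 2-fold higher (0.99%, beside 2.99% of all). Far C/EBPα pairs were at least 2-fold higher in 91 cases (8.29%, beside 7.72%) and at least 2-fold lower in 89 (8.11%, beside 6.56%). Far IRF8 pairs were at least 2-fold higher in 187 (11.0%, beside 11.3%) and lower in 153 (9.03%, beside 7.96%). These shares were close to those of all pairs, and JUNB scored higher after IL-4 in 23 of its 101 far pairs (22.8%, beside 26.4% of all).

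The largest score ratios of IL-4 over control included sites shared by C/EBPα and IRF8. Upstream of Pik3r1, the gene of a regulatory subunit of PI3-kinase, IRF8 scored 3.01 in control and 39.31 after IL-4 (13.1-fold), and C/EBPα scored 4.58 and 42.27 (9.23-fold). At a site 799020 bp from Gm20125, IRF8 scored 16.40 and 85.48 and C/EBPα 7.39 and 44.43. Neither site had a JUNB peak in either condition. Near B3gnt2, a glycosyltransferase gene, C/EBPα alone was called, at 7.54 and 70.71 (9.38-fold). Beside Maf, which encodes a macrophage bZIP factor, a C/EBPα peak scored 4.91 and 28.62. In the other direction, C/EBPα scored 27.67 and 6.00 near F930015N05Rik, where IRF8 scored 4.87 and 7.13. IRF8 scored 18.34 and 3.24 near Parp8, with C/EBPα at 14.93 and 12.03. JUNB scored 30.99 and 7.31 near Nfkbiz, the gene of an inducible NF-κB co-factor, while IRF8 scored 5.89 and 19.88 there.

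Far peaks called in 1 condition only were named by score. After IL-4, C/EBPα appeared at 40.77 beside Zfp36l1, an mRNA-decay factor gene, with no peak of the other factors. It also appeared at 31.75 in a site 562954 bp from Tlr4, the lipopolysaccharide receptor gene, where IRF8 scored 3.36 in control and 15.07 after IL-4. IRF8 appeared at 64.26 upstream of Zc3h12c, with C/EBPα at 7.62 after IL-4 only, and at 23.60 beside Inhba, an activin subunit gene, where C/EBPα scored 16.14 and 57.17. Upstream of Fndc3a all 3 factors were called only after IL-4, with IRF8 at 25.39, C/EBPα at 18.31 and JUNB at 5.80. Among peaks called only in control, the strongest of JUNB lay beside Gm14461 (27.64), H2afy3 (27.38) and Zswim2 (21.10). C/EBPα scored 34.67 and 44.05 at the H2afy3 site and 45.94 and 49.64 at the Zswim2 site. The strongest control-only C/EBPα peaks lay beside 4933416E03Rik (24.56), Ptpn1 (21.98) and Ankrd50 (20.18), and each of these regions kept an IRF8 peak in both conditions.

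Far C/EBPα and IRF8 peaks gained after IL-4 held the STAT6-type motif more often than those kept or lost, whereas far JUNB peaks gained did not exceed those kept. The STAT6-type motif was in 85 of the 279 windows of far C/EBPα peaks gained after IL-4 (30.5%, 25.4 to 36.1), against 83 of 1108 kept (7.49%, 6.08 to 9.19) and 11 of 290 lost (3.79%, 2.13 to 6.66). In the flanks 1000 bp to each side of the far C/EBPα IL-4 peaks it was in 6.11%. Among all C/EBPα peaks gained it was in 20.1% (19.1 to 21.2), and among gained intergenic peaks within 100 kb in 22.2% (20.1 to 24.5), so the far interval lay above both. For IRF8 the motif was in 95 of 655 far peaks gained (14.5%, 12.0 to 17.4), 6.44% of those kept and 7.74% of those lost. Among gained IRF8 peaks it was in 15.3% within 100 kb, close to the far share, and in 11.9% of all. For JUNB it was in 3 of 55 far peaks gained (5.45%, 1.87 to 14.9), 10.8% of those kept (6.13 to 18.3) and 2.72% of those lost. The gained share was below the 23.6% (18.6 to 29.3) of gained JUNB peaks within 100 kb and the 17.5% of all gained, on few peaks.

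Where C/EBPα and IRF8 were both gained in one far region, the motif was most frequent. It was in 26 of 47 such regions (55.3%, 41.2 to 68.6), against 58 of 745 where both were kept (7.79%, 6.07 to 9.93), 2 of 27 where both were lost, and 8.57% of all 3467 far regions. Of all 60847 regions, far or not, 751 gained both factors. The motif share of those was not computed, so whether the share is particular to far regions is unknown. Among the strongest of the 47 were those beside Zfp608 (C/EBPα 27.91, IRF8 22.10 after IL-4), 2310008N11Rik (28.51 and 20.27) and Nmbr (24.29 and 19.69), which all held the motif. The Fndc3a region did not. Of the 5 paired far peaks with the largest score ratio, the motif was in 4 (C/EBPα), 4 (IRF8) and 2 (JUNB), and 0 of the 5 with the smallest ratio held it for each factor. The Pik3r1 and Gm20125 sites are in both the C/EBPα and the IRF8 count. These counts cover only the extremes. In far pairs at least 2-fold higher after IL-4, the motif was in 29 of 91 (31.9%, C/EBPα) and 34 of 187 (18.2%, IRF8). Over all pairs at least 2-fold higher the shares were 25.4% and 15.8%. In far pairs at least 2-fold lower they were 2.25% and 5.23%. A match is a description of the letters, and binding of STAT6 was not measured in these lists.

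**Figure D3:**
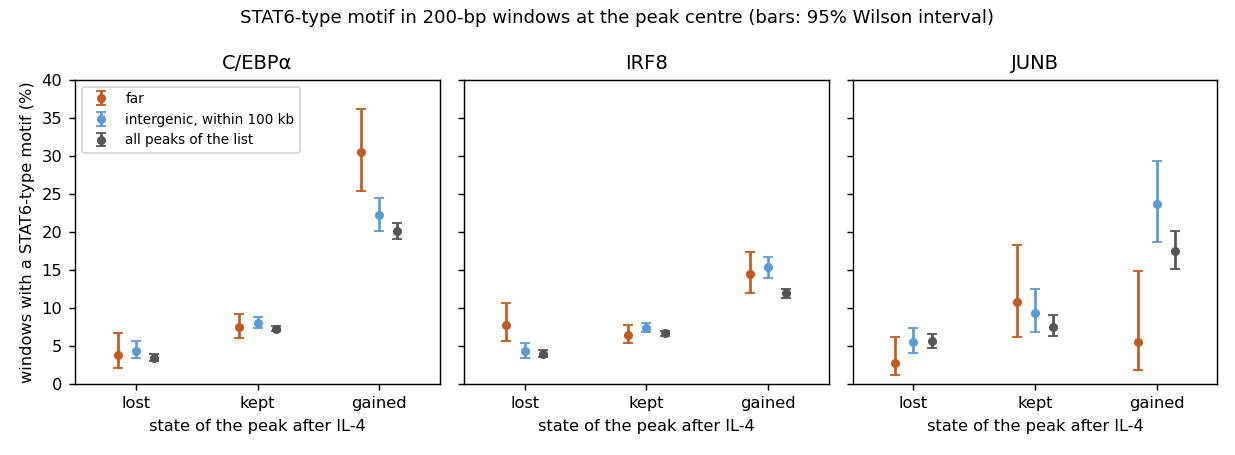
The share of 200-bp windows with the STAT6-type motif, in percent, is plotted for peaks lost, kept and gained after IL-4, for far peaks (orange), intergenic peaks within 100 kb (blue) and all peaks (grey), with 95% Wilson intervals. The share is highest in gained peaks of C/EBPα and IRF8, reaching 30.5% in far C/EBPα peaks, while the far JUNB peaks gained are at 5.45%.

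Motifs of each factor were more frequent in its far peaks than in the flanks. In control the C/EBP motif was in 36.6% of far C/EBPα windows (34.1 to 39.2), beside 34.3% of all C/EBPα peaks and 9.05% of the flanking windows. The AP-1 motif was in 54.2% of far JUNB windows (48.4 to 59.9), beside 47.8% of all JUNB peaks and 4.02% of the flanks. Far IRF8 windows held the PU.1-IRF motif in 13.9%, the ISRE core in 15.7% and the PU.1 motif in 13.3%, beside 12.1%, 16.1% and 13.5% of all IRF8 peaks. In the flanks these were in 2.17%, 8.22% and 1.19%. The C/EBP motif was more frequent than any of them in far IRF8 windows, at 17.2% beside 9.25% of the flanks. The median GC content of far windows was 43.5% to 45.0% against 45.5% to 46.5% in all peaks and 42.0% to 42.5% in the flanks. Motifs of other factors were also above their share of all peaks in some lists. The AP-1 motif was in 17.0% of far C/EBPα windows (15.1 to 19, beside 13.4% of all) and 14.4% of far IRF8 windows (13.0 to 15.9, beside 11.1%), and the C/EBP motif was in 17.2% of far IRF8 windows (15.7 to 18.9, beside 13.9%). In intergenic peaks within 100 kb, AP-1 was in 15.2% for C/EBPα (14.4 to 16.1) and 13.2% for IRF8 (12.5 to 13.9). Both of these intervals overlapped the far ones. The C/EBP motif was in 14.7% of IRF8 peaks within 100 kb (13.9 to 15.4), below the far interval.

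The AP-1 motif was present in both kept and lost JUNB sites. It was in 64 of 102 far JUNB peaks kept (62.7%, 53.1 to 71.5) and in 91 of 184 lost (49.5%, 42.3 to 56.6), with overlapping intervals. Over all JUNB peaks it was in 50.7% of those kept and 46.2% of those lost. Within 100 kb it was in 59% (54.2 to 63.7) and 48.2% (44.6 to 51.8), where the intervals did not overlap. It was in 16 of the 55 far peaks gained (29.1%, beside 32.5% of all gained). Motif content also differed with the partner. Far C/EBPα control peaks without IRF8 held the C/EBP motif in 47.2% (240 of 508), and those on an IRF8 peak in 30.6% (272 of 890), while the PU.1 motif was in 5.31% and 12.6% and the PU.1-IRF motif in 1.97% and 10.2%. Far C/EBPα peaks on a JUNB peak held AP-1 in 43.9% against 11.7% of the others.

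Many far peaks lay on a peak of another factor. In control, 890 of 1398 far C/EBPα peaks lay on an IRF8 peak (63.7%, 61.1 to 66.1, beside 58.1% of all C/EBPα peaks). Of the far JUNB peaks, 78.3% lay on C/EBPα (73.2 to 82.7, beside 72.3%) and 82.9% on IRF8 (78.1 to 86.8, beside 80.8%). After IL-4 the same shares were 66.8% (64.3 to 69.2, beside 60.6%), 80.6% (73.8 to 86.0, beside 73.4%) and 86.2% (80.1 to 90.7, beside 82.6%). The C/EBPα intervals lay above the share of all peaks in both conditions, and so did the JUNB intervals for C/EBPα but not those for IRF8. Intergenic peaks within 100 kb differed less, with 61.3% for C/EBPα on IRF8 (60.1 to 62.4), 76.2% for JUNB on C/EBPα and 83.3% for JUNB on IRF8 in control, and 64.6%, 78.5% and 84.4% after IL-4. IRF8 on C/EBPα was 41.3% far (39.2 to 43.4, beside 37.9% of all IRF8 peaks) and 43.3% within 100 kb (42.3 to 44.3) in control. After IL-4 it was 38.4% far (36.5 to 40.4, beside 35.3% of all) and 41.8% within 100 kb (40.8 to 42.8). The far intervals for IRF8 thus lay above the share of all peaks in both conditions. After IL-4 the far interval lay below that of peaks within 100 kb. The share of C/EBPα peaks on IRF8 in control was 61.3% at 100 to 200 kb, 66.5% at 200 to 500 kb, 74.1% at 500 kb to 1 Mb and 54.5% over 1 Mb (6 of 11), with overlapping intervals between neighbouring bins. After IL-4 the same bins gave 66.2%, 68.3%, 67.0% and, over 1 Mb, 4 of 10 peaks.

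Peaks of several factors also scored higher. Far C/EBPα control peaks on both other factors (204) had a median score of 24.2, and those on neither (484) had 9.65. IRF8 gave 20.3 for 203 peaks and 8.81 for 1220. JUNB was seldom alone, with 23 of 286 far control peaks on neither other factor (8.04%) and 198 on both (69.2%, 63.7 to 74.3, beside 63.9% of all JUNB peaks).

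Of the 3467 far regions, 94 were bound by all 3 factors in both conditions (2.71%, 2.22 to 3.31, beside 1.63% of all 60847 regions), and 1092 had a peak in 1 list only (31.5%, beside 35.4%). One of these 94 lay beside 4930474N05Rik, where C/EBPα scored 39.40 and 38.34, IRF8 93.84 and 95.84, and JUNB 40.81 and 22.46. In the 198 far regions that lost JUNB, C/EBPα was kept in 136 (68.7%, 61.9 to 74.7, beside 61.4% of all regions that lost JUNB) and IRF8 in 150 (75.8%, 69.3 to 81.2, beside 70.4%). Each was lost with JUNB in 14 (7.07%), beside 7.09% for C/EBPα and 6.57% for IRF8 in all regions that lost JUNB. In the 115 regions that kept JUNB, C/EBPα was kept in 83.5% (75.6 to 89.2, beside 76.5% of all regions that kept JUNB) and IRF8 in 88.7% (81.6 to 93.3, beside 85.5%). All 3 factors were lost together in 1 region and gained together in 4, beside 16 and 25 of all 60847 regions. Most far regions that lost a JUNB peak thus still held C/EBPα, IRF8 or both in control and after IL-4.

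Far regions were unevenly spread. Chromosome 10 held 412 of them (11.9%) at 3.15 per Mb and chromosome 13 held 315 (9.09%) at 2.62 per Mb, against 0.495 on chromosome 7 and 0.497 on chromosome X. Of the far C/EBPα control peaks 14.1% were on chromosome 10, beside 5.99% of all peaks of that list. A small number of genes held many of the regions. Of the 1064 genes 469 had a single far region (44.1%), 59 had 10 or more, and these 59 had 1005 regions (29.0%). The 15 genes with the most had 415 (12.0%). Mir5130, with 19 regions like Mef2c in the last place, was left out as having fewer far peaks (44 against 47).

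**Figure D4:**
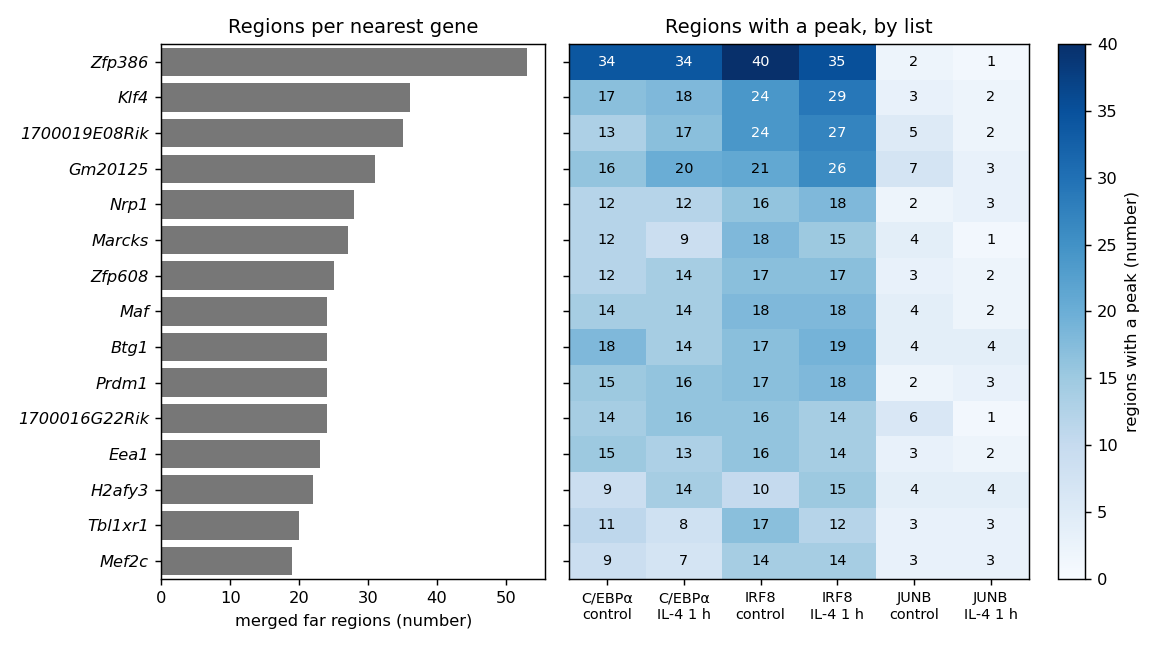
The left panel shows the number of merged far regions closest to each of the 15 genes with the most, and the right panel the number of those regions with a peak in each of the 6 lists. Zfp386 leads with 53 regions but has 2 and 1 with JUNB, while Klf4 follows with 36.

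The largest group, 53 regions beside Zfp386, lay in an antigen receptor locus. These regions covered chr12:114932176-115912639, between 135345 and 1115415 bp upstream of the TSS of this zinc finger gene. GENCODE places variable segments of the immunoglobulin heavy chain (Ighv) along this stretch, and 42 of the 53 regions had such a segment as the nearest TSS. Of the 34 far C/EBPα control peaks here, 29 were centred within 300 bp of the 3′ end of a variable segment, with a median offset of 25 bp beyond it. C/EBPα was called in 34 regions in each condition and 33 were shared, with scores up to 126.68 in control and 146.57 after IL-4. IRF8 was called in 40 and 35, and JUNB in 2 and 1. Variable segments end in a recombination signal, at which the RAG proteins cut in developing lymphocytes, and the signal opens with the heptamer CACAGTG.

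The sequences of these ends are shown because the C/EBPα peaks sit on them. Each is 100 bp of the minus strand, on which the segments are read, in mm10. Capitals mark the heptamer CACAGTG and the palindrome TTGCAA, called the core here. TTGCAA lacks the middle bases of the C/EBP motif searched above (TTGCNNAA), and the marked stretch is not a match to that motif.
Ighv1-72 (chr12:115757915-115758014): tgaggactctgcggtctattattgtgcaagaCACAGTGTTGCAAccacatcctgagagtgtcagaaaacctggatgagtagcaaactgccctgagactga
Ighv1-53 (chr12:115158334-115158433): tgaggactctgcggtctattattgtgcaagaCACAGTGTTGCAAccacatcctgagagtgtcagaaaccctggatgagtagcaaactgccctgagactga
Ighv1-74 (chr12:115802579-115802678): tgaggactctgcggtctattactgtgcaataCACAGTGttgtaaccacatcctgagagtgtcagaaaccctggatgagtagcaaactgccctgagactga
Ighv8-10 (chr12:115519271-115519370): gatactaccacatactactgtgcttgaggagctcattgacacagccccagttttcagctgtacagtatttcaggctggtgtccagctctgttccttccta

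In Ighv1-72 and Ighv1-53 the heptamer ran directly into the core TTGCAA. C/EBPα scored 126.68 and 102.88 at Ighv1-72 and 126.41 and 146.57 at Ighv1-53, with the control value first, while IRF8 scored 11.30 and 17.01, and 10.95 and 22.32. Ighv1-74 had the heptamer and a changed core, with C/EBPα at 79.04 and 46.68. The Ighv8-10 window had neither, and there IRF8 led with 59.03 and 56.75 while C/EBPα scored 10.53 and 12.02.

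Of the 43 Ighv1 segments in the stretch, 12 had the core within 12 bases after the heptamer, and C/EBPα had a peak at the 3′ end of 12 of these 12 in both conditions, with a median score of 56.8 in control and 45.8 after IL-4. Of the 21 with a heptamer and no such core, 10 had a C/EBPα peak in control (median 16.8), and of the 10 with no heptamer 2 had one. The Ighv8 segments showed the other order, with IRF8 peaks at 7 of 14 (median 39.4) and C/EBPα at 5 (median 10.5), where medians are over the segments with a peak. These categories were drawn after the peaks had been seen and carry no test. The ends are copies of each other: over 120 bp centred on the heptamer the 33 Ighv1 segments that have it shared a median of 85.0% of bases, and 4 pairs were identical. Reads of such copies can be placed on the wrong copy, so the score of a single segment is uncertain.

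**Figure D5:**
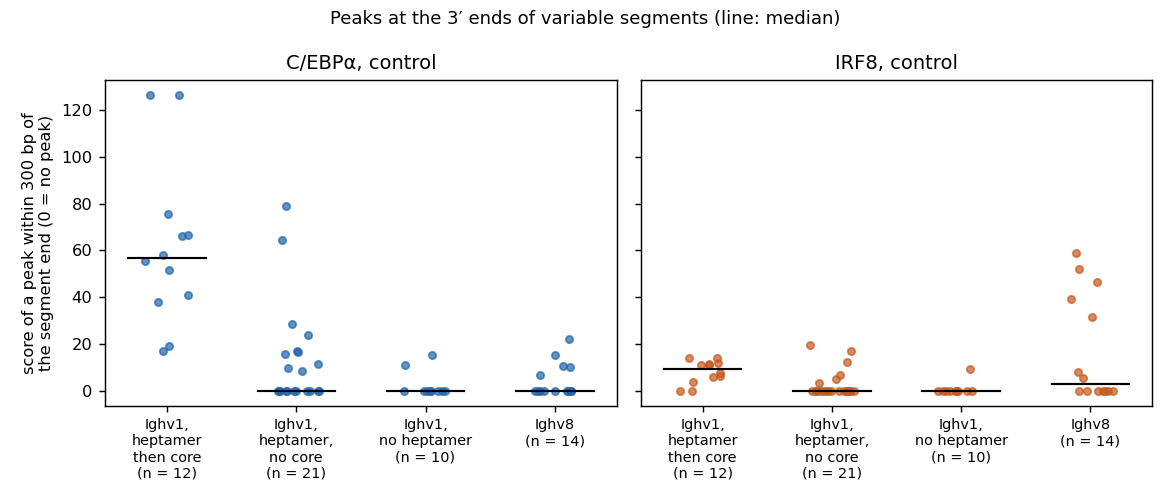
Scores of control peaks within 300 bp of the 3′ end of variable segments are plotted for C/EBPα (left) and IRF8 (right), where each point is a segment, 0 means no peak and the line is the median. The C/EBPα median is highest where the core TTGCAA follows the heptamer (12 segments, median 56.8), and the highest IRF8 points are at Ighv8 segments.

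The second largest group, 36 regions, lay 123066 to 602105 bp upstream of Klf4, which encodes a zinc finger factor of macrophage polarisation and belongs to the list of genes activated by IL-4 described below. C/EBPα was present in 17 regions in control and 18 after IL-4 and IRF8 in 24 and 29. The strongest IRF8 site, 291715 bp upstream, scored 200.87 and 181.17, and one 327757 bp upstream scored 149.69 and 143.29 with no other factor. C/EBPα led 283529 bp upstream with 111.07 and 114.26. Nearer to the gene, 269230 bp upstream, IRF8 scored 12.58 and 37.71, and 279323 bp upstream it scored 7.56 and 23.98 with C/EBPα called only after IL-4 at 8.18. Both of these windows held the STAT6-type motif. Scores were also higher after IL-4 in windows without it. IRF8 scored 24.34 and 45.14 at 589375 bp upstream, and 26.21 and 45.64 at 273122 bp. C/EBPα scored 5.28 and 15.8 at 190169 bp. Another window with the motif, 405469 bp upstream, had C/EBPα at 8.29 and 10.48. JUNB had 3 control and 2 IL-4 peaks in the group, and none of them coincided.

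Prdm1, the gene of the repressor BLIMP1, had 24 regions upstream, of which 23 formed the largest chain, a run in which neighbours lie at most 20 kb apart, over 139603 bp. JUNB scored 8.09 and 15.31 at one of them, among its largest ratios at far sites. Marcks, a gene of a membrane-associated kinase substrate, had 27 regions, with 22 of them in a chain of 143310 bp where C/EBPα had 10 control and 8 IL-4 regions and JUNB 4 and 1. A chain of 20 regions lay between Btg1 and Eea1, and those of 17 beside Maf and between Ado and Zfp365. Maf had 24 regions downstream, with IRF8 up to 149.61 in control and 141.16 after IL-4. Nrp1 had 28 and Mef2c 19, both upstream. The 22 regions beside the pseudogene H2afy3 included 9 whose nearest GENCODE TSS was that of the non-coding RNA Pvt1. The groups beside 1700019E08Rik (35 regions), Gm20125 (31), Zfp608 (25), 1700016G22Rik (24), Btg1 (24), Eea1 (23) and Tbl1xr1 (20) completed the 15.

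Gene lists were examined for far regions with no test. Of the 14930 genes nearest to any peak 7.13% had a far region. Among 38 myeloid transcription factor genes, chosen with earlier results of these data known, 15 had one, with 158 regions in all. Besides Klf4, Maf and Mef2c, these included Jun (17 regions, IRF8 10 in control and 13 after IL-4, no JUNB), Zeb2 (16), Klf6 (13), Runx1 (11), Bcl6 (7) and Bach2 (5). At Zeb2, a repressor that maintains macrophage identity, C/EBPα scored up to 122.09 and 144.59. Irf2 had 3 regions, Tcf4 and Mef2a had 2 each, and Egr2, Mitf and Tfec had 1 each. Of 3 genes listed as activated by IL-4, Klf4 had 36 and Edn1, the endothelin gene, had 1. There JUNB scored 8.35 and IRF8 6.85 in control, neither was called after IL-4, and C/EBPα scored 7.39 and 7.62. Of 12 genes listed as repressed, 0 had a far region. Of 16 effectors of alternative activation, Arg1 had 1, an IRF8 peak of 4.59 called only after IL-4. The annotation assigns each region to the nearest TSS only, and which gene a region acts on was not measured.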

How the data were processed

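ChIP-seq for C/EBPα, IRF8 and JUNB was examined in Wt BMDMs without and with 1 h of IL-4, 1 library per group. The authors aligned reads to mm10 with BWA and called peaks per sample with MACS2, removed blacklisted regions and annotated peaks with HOMER. The submitters' processing notes list BWA 0.7.10, SAMtools 0.1.19, MACS2 2.0.10 and HOMER 4.2. The deposited lists give a peak score, whose scale is not stated and which was read as the −log10 p-value, or q-value, of the caller, and the distance in bp from the peak to the nearest RefSeq TSS. Both depend on depth and annotation, and no read counts were used, so the depth and its precision are unknown. Repeats overlapping far peaks were left out by the member rule, which affects sites in repeated DNA most.

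Members, gene lists and motifs were chosen with earlier results of these data known. Peaks were kept between conditions, or on another factor, when they overlapped by at least 1 bp. Score ratios used one-to-one pairs with the largest overlap. Far peaks of all lists were merged into regions, and regions at most 20000 bp apart formed chains. Named peaks were the 3 highest far peaks of each list, the 3 strongest in 1 condition only and the 5 largest ratios each way, and named genes the 15 with the most regions. Values given for a region are the highest score of each list there. Motifs were searched on both strands in 200 bp around peak centres and 1000 bp to each side in the GRCm38 genome, which is mm10. GENCODE vM21 gave segments and a second TSS catalogue. Shares have 95% Wilson intervals. Python 3.11.15, pandas 2.3.3, scipy 1.17.1 and pysam 0.24.0 were used. The procedures were tested on simulated data, and 7 of 7 checks passed. Alternatives were another overlap, rank matching, score, distance, annotation and scaling.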

Additional observations from a re-analysis of the deposited data

Results flagged for a closer look

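The number of far peaks after IL-4 over control was 1.10 for IRF8 (2359 against 2147) and 0.559 for JUNB (160 against 286). These were set apart because the 2 factors moved in opposite directions under the same treatment. The difference between the factors was not tested, since each group had 1 library. All peaks of these lists gave 1.12 for IRF8 and 0.59 for JUNB. The part of depth, library kit and background in it cannot be told apart from IL-4.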

How the results depend on the processing

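Of 105 alternative values over 15 results, 65 stayed within the limits set for the main value, 39 moved and 1 changed sign. Requiring a score of at least 10 reduced the C/EBPα lists to 828 far peaks in control and 815 after IL-4, the IRF8 lists to 1171 and 1230, and the JUNB lists to 106 and 30. Distances above 200000 bp left 529 and 537, 875 and 939, and 114 and 64. Distances above 100000 bp to every GENCODE TSS left 172 and 172, 296 and 308, and 35 and 21. With repeats kept, JUNB after IL-4 had 262. The share kept after IL-4 was 75% for C/EBPα and 72.4% for IRF8 at 50% overlap of both widths. With lists matched by rank it was 76.1% for IRF8 and 48.8% for JUNB, at a score of at least 10 it was 81.3% and 20.8%, and with repeats kept it was 41.8% for JUNB. The mean log2 ratio of IRF8 was 0.0948 with rank matching, 0.145 with scores divided by the list median and −0.032 with GENCODE distances, the value that changed sign. That of JUNB was −0.805 with rank matching and −0.254 with median scaling. C/EBPα on IRF8, JUNB on C/EBPα and JUNB on IRF8 were 50.8%, 55.6% and 59.4% at 50% overlap, and 52.3%, 64.2% and 71.7% at a score of at least 10. Above 200000 bp C/EBPα on IRF8 was 67.5% and JUNB on IRF8 86.8%, and with GENCODE distances JUNB on C/EBPα was 65.7%. The causes were not tested, beyond the fewer peaks that stricter rules leave. Leaving out the far peaks beside Zfp386, an alternative chosen after seeing the data, moved none of the 15 results. No paired analysis was possible because each group had 1 library and the result came from no test. Unknown depth limits all comparisons between conditions.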
